A study of Mus musculus with 20 samples.

Results

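Testes of leukaemia-bearing mice given vincristine and classed as having low leukaemia infiltration of the blood were compared with testes of leukaemia-bearing mice given no drug. The comparison takes 8 of the 20 testis RNA libraries of the series, chosen by their labels: 4 libraries of the Low-VCR group and 4 of the ALL group. All mice were NSG males (NOD scid gamma, an immunodeficient strain that lacks mature T, B and NK cells), 6 weeks old at the start. ALL mice carried a patient-derived xenograft of B-cell acute lymphoblastic leukaemia (B-ALL), made by injecting 400000 human leukaemia cells into the tail vein, and had no vincristine. Low-VCR mice carried the same kind of xenograft, were given vincristine sulfate at 0.5 mg/kg into the peritoneum once a week for 3 weeks from day 69, and were classed as having low infiltration; High-VCR mice had the same treatment and high infiltration. Controls were given saline. NC (normal control) and VCR (vincristine, with no injected cells named in the labels) served to ask whether the response differed without leukaemia. Together with High-VCR they also entered the count filter and the estimate of spread of the main test, which was fitted over all 20 libraries. The infiltration class was set after engraftment, so Low-VCR is a selected group, and an untreated group with a matching infiltration class is not named in the labels.

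In the seminiferous tubules, spermatogonia divide by mitosis, enter meiosis as spermatocytes and leave it as round spermatids, which condense their chromatin, build a flagellum and become sperm. Sertoli cells nurse these germ cells and form the blood-testis barrier, peritubular cells surround the tubule, and Leydig cells and macrophages lie between tubules, where Leydig cells make testosterone from cholesterol. Vincristine binds tubulin and blocks the assembly of microtubules, which dividing cells need for the spindle and spermatids for the manchette and the flagellum.

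Total counts were 10.3 to 11.8 M (mega) in ALL and 13 to 13.9 M in Low-VCR. Of 22066 gene symbols, 16534 were tested. Levels are given as CPM, counts per 1 M counts after TMM scaling (a correction for differences in RNA composition), and the level of a gene list as the mean log2 CPM of its members. "Rose" and "fell" are used of genes whose adjusted p (Benjamini-Hochberg) was below 0.05 in edgeR's quasi-likelihood test over all 20 libraries, with n = 4 per group; numbers such as 1.20 ± 0.10 are log2 fold changes, Low-VCR over ALL, with their standard error. As a check of the tissue label, 24 of 25 listed markers of elongating spermatids and 27 of 27 of Sertoli cells passed the count filter, and 8 of 12 epididymis markers did not. Each pair of libraries of a group differed by more than counting noise.

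Between the groups, 8527 genes passed the test, 51.6% of those tested. Of these, 6016 rose (36.4%) and 2511 fell (15.2%), and 4744 changed at least 2-fold, with 3874 higher (23.4%) and 870 lower (5.26%). The share of higher genes among those called was 70.6%. Groups that enter that test differed in spread: the biological coefficient of variation was 46.9% in VCR, 26% in Low-VCR and 9.33% in ALL. With the spread taken from the 8 libraries of the comparison alone, 11001 genes passed (66.5%), of which 6139 were higher (37.1%) and 4862 lower (29.4%), and the share of higher genes was 55.8%. Both fits called 8290 genes, none in opposite directions. Without any test, the values of the groups did not overlap for 5789 genes that were higher (35%) and 4858 that were lower (29.4%). The split also moved with scaling: 89.3% of called genes were higher with library size alone and 52.9% with DESeq2 size factors, which shift the median of all genes by 0.26 and -0.17. Over the same 20 libraries the share of higher genes was 50.3% with DESeq2 and 53.8% with voom. What causes these shifts was not tested. For genes of late germ cells the counts of both fits and of non-overlapping genes are therefore given together.

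**Figure D1:**
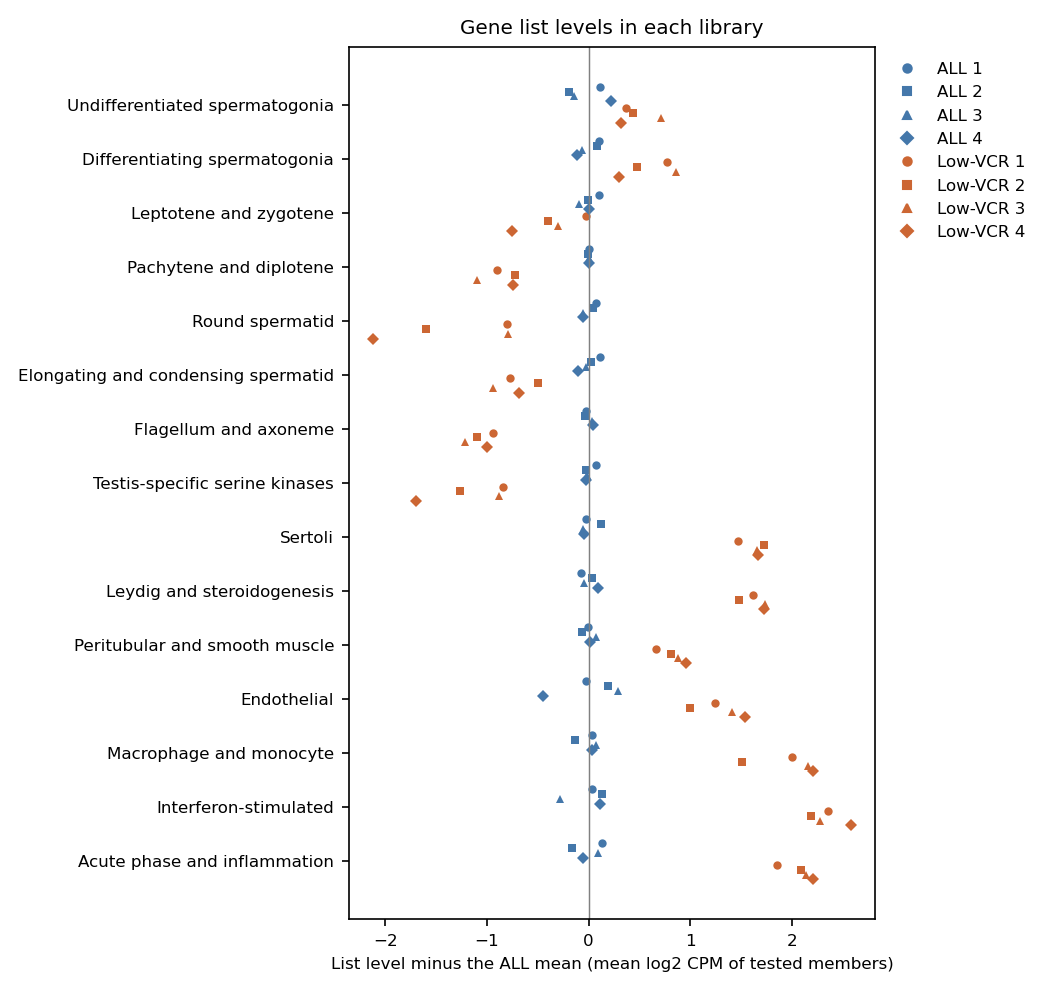
Level of germ cell, somatic and immune gene lists (y axis) in each library of ALL (blue) and Low-VCR (orange), as mean log2 CPM of the tested members minus the ALL mean of the list (x axis); marker shapes give replicates 1 to 4. Low-VCR lies below ALL for spermatocyte and spermatid lists from pachytene on and above it for spermatogonial, somatic, interferon and inflammation lists, and the leptotene and zygotene list overlaps.

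Genes of meiotic and later germ cells were lower after vincristine, with list medians from -1.13 to -0.26 on the log2 scale. In these whole-tissue libraries, fewer cells of a type and less RNA per cell cannot be told apart. Lists of the other cell types moved in the opposite direction, as given further on, and their part in these values was not tested. The median over all tested genes was 0.08. Member counts are read against the shares of all tested genes that were lower: 15.2% in the 20-library test, and 29.4% both in the 8-library fit and without overlap. In the 20-library test the pachytene, elongating spermatid, flagellum, and leptotene and zygotene lists held a smaller share of called members than that background, and the round spermatid list a larger one.

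Round spermatid genes had the lowest median of the germ cell lists, -1.13, and all 26 tested members had a negative fold change. Of them 8 fell in the 20-library test, 23 were lower in the 8-library fit and 25 did not overlap between groups. Catsper1, a subunit of the calcium channel of the sperm tail, was at 245.5, 216.7, 204 and 234.4 CPM in ALL 1 to 4 and at 111.9, 48.2, 132.2 and 29.9 CPM in Low-VCR 1 to 4. The groups did not overlap, and Low-VCR 2 and 4 lay below Low-VCR 1 and 3. It fell 2.79-fold (-1.48 ± 0.42, adjusted p 0.0074). Izumo1, the sperm protein that binds the egg receptor Juno, showed the same order, at 132 to 148 CPM in ALL and at 70.7, 27, 75.8 and 13.4 CPM in Low-VCR 1 to 4. It fell 2.96-fold (-1.56 ± 0.54, adjusted p 0.0227). Lyzl4, a lysozyme-like protein of the acrosome region, was at 17.5 to 20.7 CPM in ALL and at 10.8, 5.37, 11.7 and 2.90 CPM in Low-VCR (-1.28 ± 0.40, adjusted p 0.0143). Catsper3, the acrosomal membrane proteins Spaca1, Spaca3 and Spaca4, and Lyzl6 were the other members that fell, by 1.41 to 1.56 on the log2 scale.

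The round spermatid list as a whole split Low-VCR in the same way. Its level was 7.09 to 7.21 in ALL and 6.34, 5.55, 6.35 and 5.02 in Low-VCR 1 to 4. Libraries 1 and 2 and libraries 3 and 4 carry library numbers of different ranges, so each range held a higher and a lower library. The number of members called lower ranged from 2 to 11 over the 20-library fits that left out 1 library, and from 16 to 25 over the 8-library fits.

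Tssk4 and Ccdc159, the genes in the series title, were not called in the 20-library test of this comparison. Tssk4, a kinase of the testis-specific serine kinase family that acts in spermatid and sperm maturation, was at 92.1, 87.4, 79.5 and 89.5 CPM in ALL and at 55, 23.9, 63.2 and 9.29 CPM in Low-VCR 1 to 4. Every Low-VCR value lay below every ALL value, with the same order of libraries as for Catsper1. The fold change was -1.20 ± 0.63, with an adjusted p of 0.111 over 20 libraries and of 0.0548 over the 8 libraries. It passed with voom (adjusted p 0.00502), with the replicate block (0.0445) and with the 12 engrafted libraries (0.0469), and in the other fits its adjusted p was 0.0548 to 0.376. Ccdc159, a coiled-coil protein, was at 48.7, 17.5, 26.8 and 30.2 CPM in ALL and at 26.6, 38.5, 17.6 and 25.5 CPM in Low-VCR. The groups overlapped and the fold change was -0.19 ± 0.78 (adjusted p 0.84), a value that turned to 0.12 without ALL 1 and to 0.059 with library size alone. Of the kinase list, with its substrate Tsks, 0 of 7 members fell over 20 libraries, 5 were lower in the 8-library fit and 7 did not overlap, with a median of -0.95.

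Elongating and condensing spermatid genes had a median of -0.83. In this list 1 of 24 members fell and 1 rose over 20 libraries, 22 were lower and 1 higher in the 8-library fit, and 22 did not overlap on the lower side. Prm3, a protamine family gene of condensing spermatids, was at 249.1, 223.5, 204.7 and 196.5 CPM in ALL and at 82.3, 96.4, 91.4 and 82.1 CPM in Low-VCR. All 4 Low-VCR libraries were close together, unlike for Catsper1. It fell 2.48-fold (-1.31 ± 0.49, adjusted p 0.0341), a call lost when any library other than ALL 4 was left out (adjusted p up to 0.0698) and held in the 8-library fit (5.65e-06). Prm1, which replaces histones in sperm chromatin, was at 2312 to 2625 CPM in ALL and at 933, 1735, 657 and 1598 CPM in Low-VCR 1 to 4. Here Low-VCR 2 and 4, the lowest for Catsper1, were the highest. Its change did not pass over 20 libraries (-1.01 ± 0.61, adjusted p 0.162) and did over 8 (adjusted p 0.0115). The list level showed this order too, at 9.54 to 9.76 in ALL and 8.88, 9.16, 8.71 and 8.97 in Low-VCR 1 to 4.

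Klk1b1, a kallikrein-related peptidase placed in that list, moved the other way, and its place among spermatid genes is uncertain. It was at 0.435, 0.607, 0.195 and 0.110 CPM in ALL and at 4.76, 2.15, 4.33 and 1.89 CPM in Low-VCR. It rose 9.48-fold (3.25 ± 0.79, adjusted p 0.00248). The gene belongs to a family of closely related copies, and how shared reads were divided is not given in the sources used here.

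Flagellum and axoneme genes were lower in all 30 tested members, with a median of -1.02. Of these, 2 fell over 20 libraries, 27 were lower in the 8-library fit and 29 did not overlap. Armc2, needed for the central pair of the sperm axoneme, was at 40 to 43.5 CPM in ALL and at 27.8, 17.9, 27.4 and 16.2 CPM in Low-VCR (-0.89 ± 0.30, adjusted p 0.0211), a call lost without Low-VCR 2 or Low-VCR 4 (highest adjusted p 0.0643). Cfap44, a cilia and flagella protein whose loss disrupts the sperm tail, was at 90.2 to 102.2 CPM in ALL and at 56.4, 48.8, 45.5 and 50.3 CPM in Low-VCR. The groups were apart, and the fold change was -0.94 ± 0.38 (adjusted p 0.0468). That call was lost without any single library of the comparison (adjusted p up to 0.0937), while the 8-library fit gave 2.09e-05.

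Pachytene and diplotene spermatocyte genes had a median of -0.84, with all 25 members negative. Of these 1 fell over 20 libraries, 23 were lower in the 8-library fit and 24 did not overlap. The member that fell was Btg4, an adaptor of mRNA deadenylation, which went from 7.59 to 9.49 CPM in ALL to 3.70 to 4.68 CPM in Low-VCR (-1.08 ± 0.38, adjusted p 0.0246; 0.0567 without Low-VCR 4). Leptotene and zygotene genes changed least of the meiotic lists, with a median of -0.26 that turned to 0.0090 with library size alone. Their level overlapped between groups, at 4.95 to 5.15 in ALL and 4.29 to 5.02 in Low-VCR. In this list 3 of 28 members fell, 9 were lower in the 8-library fit and 10 did not overlap. Msh4, which stabilises meiotic crossovers, was at 10.8 to 20 CPM in ALL and at 3.80 to 7.33 CPM in Low-VCR (-1.51 ± 0.54, adjusted p 0.0268). Syce3, a protein of the synaptonemal complex central element, was at 24 to 32.9 CPM in ALL and at 8.49 to 16.9 CPM in Low-VCR (-1.09 ± 0.38, adjusted p 0.0229). The Msh4 call was lost without ALL 4 or Low-VCR 1, 2 or 3, and the Syce3 call without ALL 1 or Low-VCR 4, with adjusted p up to 0.0698 and 0.0688. The remaining member, the meiotic cohesin Rec8, fell by 1.15 (adjusted p 0.0469).

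Markers of undifferentiated spermatogonia rose more often than the background of 36.4% of all tested genes, and those of differentiating spermatogonia at a share near it. Of 15 tested markers of undifferentiated spermatogonia 8 rose and 1 fell, with a median of 0.71, and 6 did not overlap on the higher side, close to the background of 35%. Etv5, a transcription factor of spermatogonial stem cell renewal, was at 19.7, 17.1, 17.4 and 20.6 CPM in ALL and at 35.8, 35.3, 41.5 and 36.8 CPM in Low-VCR. The groups were apart with little spread, and Etv5 rose 2.00-fold (1.00 ± 0.14, adjusted p 1.66e-05). Tspan8, a tetraspanin of stem cell-enriched spermatogonia, rose from 0.684 to 0.993 CPM in ALL to 3.15 to 4.68 CPM in Low-VCR (2.19 ± 0.38, adjusted p 0.00013). The receptor Ret, which binds GDNF signals, rose as well (1.71 ± 0.39, adjusted p 0.00148), while Id4, an inhibitor of differentiation that marks stem cells, fell (-1.58 ± 0.59, adjusted p 0.0335) with overlapping groups, and Gfra1, the co-receptor of Ret, did not pass (0.61 ± 1.20, adjusted p 0.665).

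Differentiating spermatogonia markers had a median of 0.63, with 6 of 14 higher and 1 lower, the transcription factor Dmrtb1. In the 8-library fit 5 were higher and 5 did not overlap on the higher side, both near the background of 37.1% and 35%. Dmrt1, a transcription factor of spermatogonia and Sertoli cells, was at 24.6, 23.3, 24.2 and 23.1 CPM in ALL and at 50.5, 55.1, 61.4 and 52.3 CPM in Low-VCR. It rose 2.30-fold (1.20 ± 0.10, adjusted p 6.55e-07). Uchl1, a ubiquitin hydrolase of spermatogonia, rose from 53.5 to 65.5 CPM in ALL to 129 to 170 CPM in Low-VCR (1.32 ± 0.19, adjusted p 1.94e-05). Kit, the receptor that marks differentiating spermatogonia and is also present on Leydig cells, rose 2.68-fold (1.42 ± 0.24, adjusted p 9.65e-05). Stra8, which triggers entry into meiosis, did not pass (0.61 ± 0.26, adjusted p 0.058).

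Sertoli cell genes rose nearly throughout: 26 of 27 tested members passed and 0 fell, with a median of 1.72. Counts of this and the following lists are read against all tested genes, of which 36.4% rose and 15.2% fell. Fshr, the receptor for follicle-stimulating hormone, was at 6.42, 9.52, 7.13 and 6.95 CPM in ALL and at 25, 37.5, 29.6 and 24.8 CPM in Low-VCR. It rose 3.89-fold (1.96 ± 0.19, adjusted p 1.03e-06). Ctsl, a lysosomal protease that Sertoli cells secrete, was at 136.4 to 176.2 CPM in ALL and at 563.5 to 802.9 CPM in Low-VCR (2.16 ± 0.21, adjusted p 1.03e-06).

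Junction genes of the blood-testis barrier rose in 11 of 16 members and fell in 0, with a median of 1.18. Jam2, a junctional adhesion molecule, was at 7.07, 5.67, 6.54 and 5.30 CPM in ALL and at 40.9, 52.9, 42 and 52.7 CPM in Low-VCR. It rose 7.66-fold (2.94 ± 0.30, adjusted p 1.26e-06). Cldn11, the claudin of Sertoli cell tight junctions, rose 3.71-fold, from 62.2 to 67.6 CPM in ALL to 191.4 to 277.7 CPM in Low-VCR (1.89 ± 0.20, adjusted p 1.26e-06).

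Leydig cell and steroid synthesis genes rose in 13 of 16 members, with a median of 1.87 and 0 falls. Hsd17b3, the enzyme of the last step to testosterone, was at 7.62, 11.2, 7.91 and 10.3 CPM in ALL and at 63, 63.6, 67.1 and 68.7 CPM in Low-VCR. It rose 7.08-fold (2.82 ± 0.30, adjusted p 1.4e-06). Tspo, a mitochondrial outer membrane protein abundant in steroid-making cells, rose 4.98-fold (2.32 ± 0.25, adjusted p 1.42e-06). The cholesterol carrier Star rose by 1.87 ± 0.24 (adjusted p 5.7e-06) and Cyp11a1, which cleaves the cholesterol side chain, by 2.35 ± 0.34 (adjusted p 1.92e-05). Cholesterol synthesis genes rose in 12 of 22 members and fell in 2, with a median of 0.66. The number called higher ranged from 6 to 16 over the alternative fits. Msmo1, a sterol demethylase, was at 8.81, 10.1, 12.2 and 12 CPM in ALL and at 80.2, 49.6, 47 and 54.7 CPM in Low-VCR (2.42 ± 0.29, adjusted p 3.66e-06). Ebp, a sterol isomerase, rose 4.05-fold (2.02 ± 0.19, adjusted p 9.55e-07). Fdft1, squalene synthase, was among those that fell (-0.79 ± 0.17, adjusted p 0.000906).

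Peritubular and smooth muscle genes rose in 9 of 13 members, with a median of 1.09. Acta2, smooth muscle actin, rose from 63.6 to 88.3 CPM in ALL to 165.8 to 233.3 CPM in Low-VCR (1.39 ± 0.19, adjusted p 1.02e-05), and the myosin light chain Myl9 rose 3.26-fold (1.70 ± 0.18, adjusted p 1.49e-06). Actg2, an enteric smooth muscle actin, fell (-0.89 ± 0.36, adjusted p 0.0499). Endothelial genes rose in 10 of 16 members, among them the adhesion protein Esam (1.59 ± 0.19, adjusted p 2.94e-06) and Ly6c1 (2.78 ± 0.34, adjusted p 3.66e-06), with a median of 1.33. Sox17, a transcription factor of endothelium, fell (-2.01 ± 0.76, adjusted p 0.036). Extracellular matrix genes rose in 16 of 21 members, with a median of 1.37 and 0 falls. Timp1, an inhibitor of matrix metalloproteinases, was at 1.96, 2.02, 3.52 and 1.77 CPM in ALL and at 21.1, 31, 20.3 and 32.2 CPM in Low-VCR, a rise of 11.2-fold (3.48 ± 0.32, adjusted p 8.79e-07). The proteoglycan decorin, Dcn, rose 3.70-fold (1.89 ± 0.21, adjusted p 1.64e-06).

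**Figure D2:**
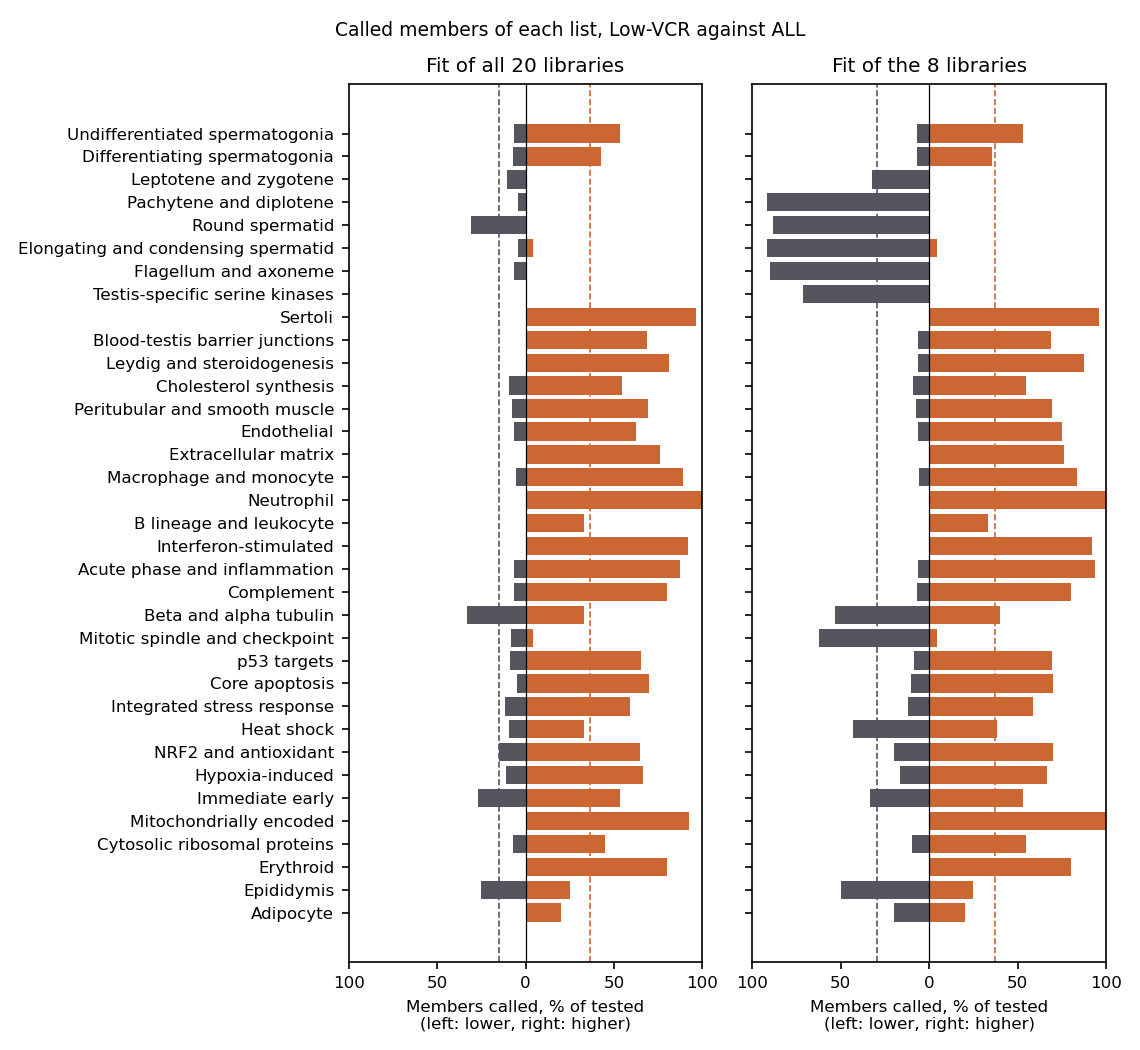
Share of the tested members of each gene list (y axis) called lower (grey, to the left) or higher (orange, to the right) in Low-VCR against ALL, in percent (x axis), in the 20-library fit (left) and the 8-library fit (right); dashed lines mark the shares of all tested genes. Sertoli, Leydig, interferon and macrophage lists hold nearly only higher members in both fits, whereas the lower calls of pachytene, elongating spermatid and flagellum genes number 1, 1 and 2 in the first fit and 23, 22 and 27 in the second.

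Macrophage and monocyte genes rose in 16 of 18 tested members, with a median of 2.27. C1qa, a chain of complement C1q made by tissue macrophages, was at 15.4, 18.4, 17.8 and 13.8 CPM in ALL and at 87.6, 81.1, 99.9 and 90.2 CPM in Low-VCR. It rose 5.48-fold (2.45 ± 0.22, adjusted p 8.59e-07), and C1qc rose 5.17-fold (2.37 ± 0.23, adjusted p 1.03e-06). Aif1, a macrophage marker that spermatids also express, fell (-0.79 ± 0.27, adjusted p 0.0207). Complement genes, 3 of which are shared with the macrophage list, rose in 12 of 15 members, with a median of 2.04. C3 and C4b are also in the acute phase list. Cd55, a complement inhibitor, fell (-0.92 ± 0.36, adjusted p 0.0425).

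Markers of blood cells gave mixed values. The defining neutrophil genes were at or near 0: S100a8 had 0 counts in ALL and 3 in Low-VCR summed over 4 libraries, S100a9 had 2 and 8, and Ly6g had 0 in both. The 2 of 10 neutrophil members that passed the filter, Camp and Csf3r, rose by 2.44 ± 0.39 and 1.37 ± 0.27 (adjusted p 5.97e-05 and 0.000385). Mouse B-cell genes Cd79a, Cd79b and Ms4a1 had 4, 1 and 2 counts in ALL and 18, 26 and 10 in Low-VCR, below the filter. Of 9 tested members of the B lineage and leukocyte list 3 rose: Mme, a peptidase found on stromal cells as well as lymphoid precursors (2.05 ± 0.22, adjusted p 1.71e-06), the leukocyte tetraspanin Cd53 (2.05 ± 0.27, adjusted p 6.85e-06) and Cd72, given below. The share of that list that rose was near the 36.4% of all tested genes. Its median was 0.44, and its level overlapped between groups. Pax5, a transcription factor of B cells, did not pass (adjusted p 0.146). Whether human reads were removed from the counts is not given in the sources used here. Erythroid genes rose in 4 of 5 tested members. Hbb-bs, a haemoglobin beta chain, was at 17.7, 27.5, 12.1 and 19.6 CPM in ALL and at 29.4, 130.6, 57 and 121.2 CPM in Low-VCR 1 to 4 (2.13 ± 0.46, adjusted p 0.000867). Low-VCR 2 and 4, the lowest for Catsper1, held the most. The part of these blood cell genes in the immune results was not tested.

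Interferon-stimulated genes rose in 23 of 25 members, with a median of 2.36, and 0 fell. Mx1 and Oasl1 did not pass (adjusted p 0.431 and 0.091). Isg15, a ubiquitin-like modifier, was at 2.94, 2.94, 1.47 and 1.66 CPM in ALL and at 18.3, 20.5, 21.6 and 27.7 CPM in Low-VCR. It rose 9.77-fold (3.29 ± 0.34, adjusted p 1.28e-06). Irf1, an interferon-induced transcription factor, was at 0.762, 1.32, 1.56 and 1.44 CPM in ALL and at 9.45, 7.28, 9.45 and 9.15 CPM in Low-VCR (2.79 ± 0.26, adjusted p 9.57e-07). Psmb8, a subunit of the immunoproteasome, rose 6.42-fold (2.68 ± 0.27, adjusted p 1.14e-06). Ifit1, which binds foreign RNA, rose 7.34-fold (2.88 ± 0.36, adjusted p 4.5e-06), and the guanylate-binding protein Gbp3 9.63-fold (3.27 ± 0.33, adjusted p 1.15e-06). The mean log2 CPM of the list was 0.96 to 1.37 in ALL and 3.42 to 3.82 in Low-VCR, with no overlap.

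Promoters of the members that rose together were read from RefSeq, from 250 bases before to 50 after the gene start in GRCm38.p6, an older build than that of the counts (GRCm39). A search on both strands for the core of the interferon-stimulated response element, GAAA followed by any 2 bases and again by GAAA, found it in 11 of 21 list members with a promoter (52.4%) and in 465 of 12787 tested genes with a promoter (3.64%). A match is a description of the letters only. Isg15 (chr4:156200769-156201068, minus strand), Ifit1 (chr19:34640639-34640938, plus strand) and Gbp3 (chr3:142559794-142560093, plus strand) are shown because they hold 3, 2 and 2 matches, which overlap in Isg15 and Gbp3, beside the rises given above. Izumo1 (chr7:45621561-45621860, plus strand) is shown as a gene that fell. Its promoter holds TGACGTCA, the cAMP response element that the spermatid activator CREM binds, which was present in 2 of 23 round spermatid members with a promoter (8.70%), in 0 of 21 elongating spermatid members and in 400 of 12787 tested genes (3.13%). Sequences run 5′ to 3′ on the gene's strand, and capitals mark the motif on either strand.
Isg15: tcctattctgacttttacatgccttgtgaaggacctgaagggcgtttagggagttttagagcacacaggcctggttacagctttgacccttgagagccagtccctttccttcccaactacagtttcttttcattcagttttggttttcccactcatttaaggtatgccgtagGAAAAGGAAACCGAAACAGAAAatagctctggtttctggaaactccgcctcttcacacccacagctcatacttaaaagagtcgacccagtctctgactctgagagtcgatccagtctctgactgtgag
Ifit1: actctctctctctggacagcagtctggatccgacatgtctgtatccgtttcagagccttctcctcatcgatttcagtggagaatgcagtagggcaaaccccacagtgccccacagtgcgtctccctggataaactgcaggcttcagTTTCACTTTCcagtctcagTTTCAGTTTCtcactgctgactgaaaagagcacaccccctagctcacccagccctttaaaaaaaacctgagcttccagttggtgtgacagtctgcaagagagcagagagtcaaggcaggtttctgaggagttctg
Gbp3: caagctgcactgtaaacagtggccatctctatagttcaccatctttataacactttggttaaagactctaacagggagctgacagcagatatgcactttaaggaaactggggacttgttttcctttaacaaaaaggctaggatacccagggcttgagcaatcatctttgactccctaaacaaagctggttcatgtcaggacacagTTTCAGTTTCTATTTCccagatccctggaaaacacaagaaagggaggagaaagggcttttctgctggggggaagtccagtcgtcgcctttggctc
Izumo1: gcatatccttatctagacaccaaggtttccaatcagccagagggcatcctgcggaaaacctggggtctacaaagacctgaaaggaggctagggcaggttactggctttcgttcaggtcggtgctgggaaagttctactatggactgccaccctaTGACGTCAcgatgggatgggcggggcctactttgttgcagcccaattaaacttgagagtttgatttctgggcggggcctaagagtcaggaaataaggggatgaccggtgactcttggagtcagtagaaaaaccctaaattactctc

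Acute phase and inflammation genes rose in 14 of 16 tested members, with a median of 2.44, while Il1b fell (-0.96 ± 0.31, adjusted p 0.0173) and Il6 and Tnf were below the filter, with 1 count each in ALL and 1 and 5 in Low-VCR. Serpina3n, a secreted protease inhibitor, was at 5.22, 6.07, 7.03 and 2.54 CPM in ALL and at 28.4, 24.1, 30.8 and 32.3 CPM in Low-VCR, a rise of 5.51-fold (2.46 ± 0.33, adjusted p 1.04e-05). Nfkb2, the p100 subunit of NF-kappaB, rose 8.24-fold (3.04 ± 0.27, adjusted p 7.51e-07). Nfkbia, the inhibitor that NF-kappaB induces, rose 3.14-fold (1.65 ± 0.15, adjusted p 7.51e-07).

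Genes of tubulin, the target of vincristine, moved in both directions. Of 15 tested members 5 rose, a share near the background of 36.4%, and 5 fell, above the background of 15.2%, and in the 8-library fit 6 were higher and 8 lower. The median was -0.72, while the mean level of the list was 6.53 to 6.72 in ALL and 6.56 to 6.85 in Low-VCR. The median and the mean level thus differ in sign. Tubb3, a beta tubulin best known from neurons, was at 62.1, 59.9, 57.7 and 60 CPM in ALL and at 153.4, 203.4, 220.8 and 242.9 CPM in Low-VCR. It rose 3.42-fold (1.77 ± 0.23, adjusted p 6.78e-06). Tubb5, a beta tubulin of most cells, rose 3.37-fold (1.75 ± 0.22, adjusted p 5.52e-06), and Tubb2b, Tuba1a and Tuba1b also rose. The members that fell were Tubb4b, of axonemes (-0.87 ± 0.27, adjusted p 0.0129), Tuba4a, Tubb2a, Tubb4a and Tubb6. The testis alpha tubulins Tuba3a and Tuba3b were lower without overlap, at -1.05 ± 0.52 and -1.04 ± 0.58, and did not pass (adjusted p 0.0937 and 0.135). Tubulins are near-identical copies, and how reads shared between them were counted is not given in the sources used here.

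Mitotic spindle and checkpoint genes were lower at the median, by -0.61. Over 20 libraries 1 of 24 rose and 2 fell, and in the 8-library fit 1 was higher and 15 were lower. Ccnb1, cyclin B1 of mitosis and meiosis, was at 127.2 to 145.5 CPM in ALL and at 102.3, 63.9, 86.1 and 67.9 CPM in Low-VCR (-0.77 ± 0.27, adjusted p 0.0252), a call lost without ALL 3, Low-VCR 2 or Low-VCR 4 (up to 0.0735). Mki67, the proliferation marker Ki-67, was at 72.9 to 77.3 CPM in ALL and at 119.1, 98.6, 105.4 and 74.8 CPM in Low-VCR 1 to 4. Low-VCR 4 overlapped with ALL, and the rise of 0.40 ± 0.15 (adjusted p 0.0318) was lost without any library but Low-VCR 4 (up to 0.107), with DESeq2 size factors (0.165), with DESeq2 (0.162), with no filter (0.0533) and within each range of library numbers (0.0726 and 0.391).

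**Figure D3:**
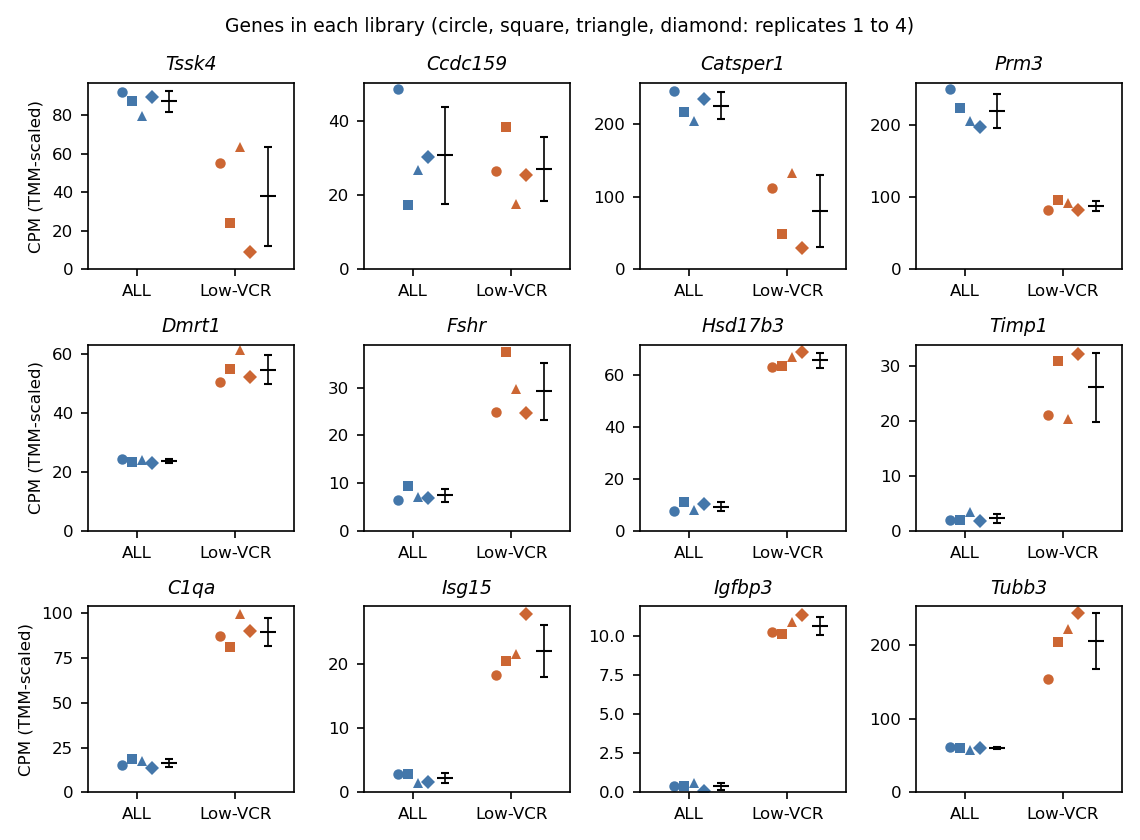
CPM of 12 genes (y axis, a linear scale per gene) in the ALL and Low-VCR libraries (x axis), with points for libraries and the mean ± SD of 4. Tssk4 and Catsper1 spread widely within Low-VCR while Dmrt1, Hsd17b3, C1qa, Isg15 and Igfbp3 separate the groups with little spread, and Ccdc159 overlaps.

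Most lists of stress and death genes held a larger share of risen members than the 36.4% of all tested genes. Falls are read against a background of 15.2%. Relative to the Sertoli list of the same library these lists were lower, as given further on. The part of cell make-up in these rises was not tested. Targets of p53 rose in 15 of 23 members and fell in 2, with a median of 1.15: Ccng1, cyclin G1, rose 3.93-fold (1.97 ± 0.23, adjusted p 2.48e-06), the stress-induced sestrin Sesn2 2.55-fold (1.35 ± 0.16, adjusted p 2.49e-06), and Mdm2, the p53 ubiquitin ligase, fell (-0.49 ± 0.14, adjusted p 0.00748), as did Zmat3. Core apoptosis genes rose in 14 of 20 members and fell in 1, Bcl2l1, which encodes the survival factor BCL-XL (-0.55 ± 0.19, adjusted p 0.0198). Birc3, an inhibitor of apoptosis that NF-kappaB induces, was at 5.33, 5.47, 6.15 and 7.84 CPM in ALL and at 31.3, 32.4, 34.8 and 34.4 CPM in Low-VCR, a rise of 5.36-fold (2.42 ± 0.18, adjusted p 3.95e-07). The executioner caspase Casp6 rose 2.98-fold (1.57 ± 0.15, adjusted p 1.02e-06).

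In the integrated stress response list 10 of 17 members rose, among them Pck2, a mitochondrial PEP carboxykinase (2.47 ± 0.27, adjusted p 1.57e-06), and Ddit4, an mTOR inhibitor (1.58 ± 0.17, adjusted p 1.34e-06), while Asns and Ddit3 fell (adjusted p 0.0231 and 0.0303). Heat shock genes were divided, with 7 of 21 higher, 2 lower (shares near the background of that test) and a median of -0.14 that turned to 0.11 with library size alone. In the 8-library fit 8 were higher and 9 lower, the latter above the background of 29.4%. The mean level of the list was 7.02 to 7.08 in ALL and 7.27 to 7.33 in Low-VCR, so the median and the mean level differ in sign. Hspb8, a small heat shock protein of selective autophagy, was at 2.29, 1.52, 1.17 and 2.65 CPM in ALL and at 17.2, 19.3, 19 and 20.8 CPM in Low-VCR, a rise of 10-fold (3.33 ± 0.34, adjusted p 1.29e-06). Hspb1 rose 2.99-fold (1.58 ± 0.18, adjusted p 2.41e-06). The members that fell were Dnajb1, an HSP40 co-chaperone, and the heat shock factor Hsf2. NRF2 and antioxidant genes rose in 13 of 20 members and fell in 3, Srxn1, Gpx4 and Sod2. G6pdx, the enzyme that feeds the pentose phosphate pathway, rose 4.35-fold (2.12 ± 0.19, adjusted p 8.53e-07), and the haem oxygenase Hmox1 4.06-fold (2.02 ± 0.22, adjusted p 1.61e-06). Hypoxia-induced genes rose in 12 of 18 members, with Egln1, a HIF prolyl hydroxylase, at 1.83 ± 0.23 and Ndrg1 at 1.69 ± 0.19 (adjusted p 5.74e-06 and 1.76e-06), and fell in 2, Ankrd37 and Ldha. Immediate early genes rose in 8 of 15 members, with Ier2 at 1.84 ± 0.19 and Junb at 2.05 ± 0.25 (adjusted p 1.27e-06 and 3.74e-06), and fell in 4, Dusp1, Egr3, Klf4 and Nr4a1.

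Transcripts of the mitochondrial genome took 1.95% ± 0.136 of counts in ALL (SD, n = 4) and 6.07% ± 1.53 in Low-VCR, which held 5.42%, 8.31%, 4.87% and 5.70% in libraries 1 to 4. The difference of 4.13 points had an exact two-sided permutation p of 0.0286, the smallest that 4 against 4 samples allow. Of 13 members 12 rose, with mt-Co2 at 1.48 ± 0.26 and mt-Co3 at 1.46 ± 0.25 (adjusted p 0.000143 and 0.000118), subunits of cytochrome c oxidase. The share differed between the groups compared throughout, and its part in the results above was not tested. Ribosomal protein genes rose in 19 of 42 members and fell in 3, with a median of 0.26, a share not far from the background. Rpl14 rose 2.09-fold (1.06 ± 0.17, adjusted p 5.11e-05) and Rps3 1.86-fold (0.90 ± 0.15, adjusted p 9.48e-05).

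Set against the Sertoli list of the same library, other lists were placed on a scale of tubule support cells. Round spermatid genes stood 2.17 to 2.34 above the Sertoli level in ALL and -1.54 to -0.02 in Low-VCR, in log2 units, a mean shift of -2.96. The shift was -2.50 for pachytene, -2.35 for elongating spermatid and -1.17 for undifferentiated spermatogonial genes, all without overlap. Leydig genes overlapped between groups, at 0.37 to 0.61 in ALL and 0.23 to 0.61 in Low-VCR (0.01). Interferon-stimulated genes were higher on that scale, by 0.72 and without overlap, and acute phase genes by 0.44, while macrophage genes overlapped (0.34). Whether the RNA of each Sertoli cell stayed the same was not tested. Most stress and support cell lists were lower on that scale without overlap: the shift was -0.55 for p53 targets, -0.74 for core apoptosis, -0.79 for the integrated stress response, -0.82 each for NRF2 and hypoxia genes, -0.66 for immediate early, -0.62 for junction, -0.80 for peritubular, -0.41 for extracellular matrix, -0.90 for cholesterol synthesis, -1.36 for heat shock and -1.39 for ribosomal protein genes. Endothelial (-0.33), complement (0.40) and mitochondrial (-0.38) genes overlapped.

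Genes outside the lists with the smallest adjusted p were led by Igfbp3, a binding protein of insulin-like growth factors. It was at 0.435, 0.405, 0.586 and 0.110 CPM in ALL and at 10.2, 10.1, 10.9 and 11.3 CPM in Low-VCR, and rose 26.7-fold (4.74 ± 0.32, adjusted p 3.38e-07). Aplp1, a relative of the amyloid precursor protein, was at 22, 20.1, 19.1 and 21.5 CPM in ALL and at 122.9, 166.1, 167.5 and 193.4 CPM in Low-VCR (2.97 ± 0.22, adjusted p 3.95e-07). Ldhd, a mitochondrial D-lactate dehydrogenase, rose 6.98-fold (2.80 ± 0.20, adjusted p 3.95e-07). Among genes that fell, Epb41l4a (-1.29 ± 0.17, adjusted p 6.74e-06), Rtn1, a reticulon of the endoplasmic reticulum (-0.97 ± 0.13, adjusted p 7.88e-06), Wdr37 (-0.62 ± 0.08, adjusted p 1.04e-05) and Pappa, a protease that cleaves binding proteins of insulin-like growth factors (-0.94 ± 0.13, adjusted p 1.1e-05), had the smallest adjusted p.

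The largest rises were of genes listed at 0 in all ALL libraries, for which a bound is given against 3 counts summed over the group. Pi4ka, a phosphatidylinositol kinase, was at 22.9, 117.1, 139.5 and 7.99 CPM in Low-VCR, at least 927-fold higher. How its symbol was counted is not given in the sources used here, and of 9374 genes that averaged 100 counts or more across the untreated libraries, 20 had a value of 0 in at least 1 library. Insc, a spindle orientation protein, was at least 40.7-fold higher, Itih4 at least 33-fold, Tead1, a transcription factor of Hippo signalling, at least 29.6-fold, Wfdc18 at least 24.2-fold, Cd72, a lymphoid co-receptor, at least 14.7-fold and Nalf1 at least 14-fold. Lrch1, at 0.586 CPM in ALL 3 and 0 in the others, was at 11.9, 4.75, 8.46 and 12.2 CPM in Low-VCR. Altogether 23 called genes were at 0 in all ALL libraries and 2 in all Low-VCR libraries. Gfi1b, a transcriptional repressor of blood cell development, was one of the latter, at 1.01 to 1.55 CPM in ALL and at least 24.6-fold lower in Low-VCR. The other large falls included Frat2, a GSK-3 binding protein of Wnt signalling, at 21.9 to 38 CPM in ALL and 2.45 to 5.23 CPM in Low-VCR (-3.05 ± 0.50, adjusted p 7.05e-05), and Tmdd1, at 40.6 to 58.5 CPM in ALL and 12.3, 3.60, 11.6 and 4.72 CPM in Low-VCR (-2.68 ± 0.52, adjusted p 0.000356). The urate transporter Slc2a9, the keratin-associated Krtap17-1, the transcription factors Dmrta2 and Olig2 and the histone H2ac7 fell by 2.67 to 3.13 on the log2 scale, from means of 1.17 to 7.80 CPM in ALL.

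The response was next set beside that of VCR relative to NC, groups without named leukaemia cells. At the median of each list the round spermatid genes were -1.13 in Low-VCR over ALL and -3.06 in VCR over NC, the kinase list -0.95 and -2.74, elongating spermatid genes -0.83 and -2.32, and Sertoli genes 1.72 and 1.93. The VCR libraries were uneven. Their round spermatid levels were 0.67, 3.96, 4.59 and 4.34 in VCR 1 to 4, all below Low-VCR (5.02 to 6.35). For pachytene and flagellum genes VCR 3 stood at 6.57 and 7.20, within the Low-VCR ranges of 6.23 to 6.61 and 7.06 to 7.34. The difference between both responses, tested per gene, was called for 839 genes (5.07%), 630 higher (3.81%) and 209 lower (1.26%). All libraries of NC and VCR carry library numbers of a range of their own, so leukaemia and that range cannot be told apart here. The number of calls fell to 7 without ALL 2 or Low-VCR 1, and only leaving out VCR 4 (1049) or Low-VCR 2 (745) moved it by less than 1.5 times. Without VCR 3 it reached 2346.

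**Figure D4:**
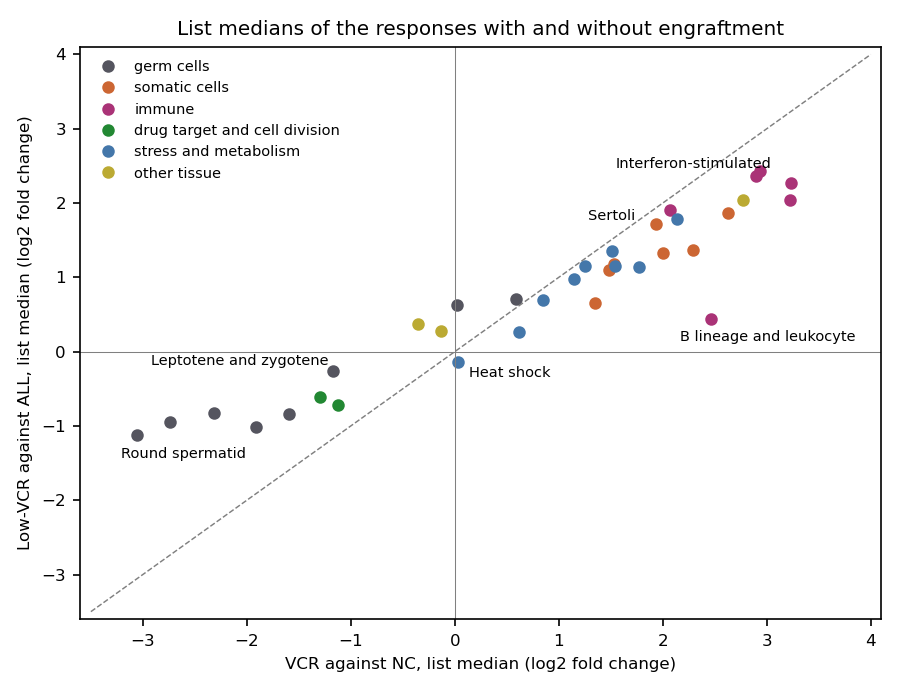
Median log2 fold change of each gene list in VCR against NC (x axis) and in Low-VCR against ALL (y axis), each point a list coloured by kind, with the dashed line marking equal values. Late germ cell lists lie above the line, such as round spermatid genes at -3.06 and -1.13, and most somatic and immune lists lie somewhat below it.

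Members with a smaller fall in Low-VCR numbered 8 of 26 in the round spermatid list and 2 of 7 in the kinase list. Of all tested genes 3.81% had a higher response, and the 2 of 28 leptotene and zygotene members were near that share. Of the Sertoli list 0 of 27 differed. With so few members this cannot be told from the 5.07% of all tested genes. Against the 1.26% of all tested genes, a lower response was called for 4 of 16 acute phase, 4 of 21 extracellular matrix, 3 of 15 complement, 2 of 16 Leydig, 2 of 16 endothelial, 2 of 18 macrophage and 2 of 14 differentiating spermatogonial members. Tssk4 had a mean of 108.2 CPM in NC, 4.26 CPM in VCR, 87.1 CPM in ALL and 37.9 CPM in Low-VCR, and the responses differed by 3.45 ± 0.92 (adjusted p 0.0447). That call was lost without any of 12 of the 16 libraries of the comparison, NC 1 to 4, ALL 1 to 4, VCR 2 and 4 and Low-VCR 1 and 3 (adjusted p up to 0.0922). Catsper1 differed by 2.35 ± 0.59 (adjusted p 0.0409), lost without any of those libraries other than VCR 4 (up to 0.0847). Ica1, an islet autoantigen with a role in membrane traffic, had means of 69.3 CPM in NC, 9.84 CPM in VCR, 61.2 CPM in ALL and 37 CPM in Low-VCR. Its responses differed by 2.09 ± 0.30 (adjusted p 0.0144), and the call was held whichever library was left out, as were those of Mas1, a receptor of angiotensin peptides (2.83 ± 0.43, adjusted p 0.0144), and Serpina3n. The fit with the replicate block called 1 gene, Btbd35f15, and ended all other calls named here. Serpina3n rose from 1.22 to 69.7 CPM in VCR over NC and from 5.22 to 28.9 CPM in Low-VCR over ALL, in group means, a difference of -3.33 ± 0.49 (adjusted p 0.0144). Laptm5, a lysosomal protein of leukocytes, and Itih3 also rose less in Low-VCR, by -1.92 ± 0.34 and -2.38 ± 0.40 (adjusted p 0.0261 and 0.0209), but these calls were lost without ALL 2, ALL 3, Low-VCR 1 or Low-VCR 3, and that of Laptm5 also without NC 1, NC 3 or ALL 4. Btbd35f15 had the smallest adjusted p (0.000887), at 5.71 CPM in NC, 0.0190 CPM in VCR, 4.53 CPM in ALL and 3.70 CPM in Low-VCR. Its value in VCR is so near 0 that no size is given, and it belongs to a family of near-identical copies.

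Infiltration was compared directly between High-VCR and Low-VCR, both treated. Here 1292 genes passed (7.81%), 517 higher (3.13%) and 775 lower (4.69%) in High-VCR. The count was 0 without Low-VCR 1, Low-VCR 3, High-VCR 1 or High-VCR 4, and 0 with the 8 libraries alone. These calls thus changed with the libraries and groups that entered the fit, and the cause was not tested. Over the other single libraries it reached 3237, without High-VCR 2. Of the round spermatid list 12 of 26 members were lower in High-VCR, beside 4.69% of all tested genes. Of the Sertoli list 0 of 27 differed, which with so few members cannot be told from the 7.81% of all tested genes. Tssk4 was at 37.9 CPM in Low-VCR and 6.16 CPM in High-VCR (-2.62 ± 0.67, adjusted p 0.029), Tmem95, a sperm protein needed for fusion with the egg, at 5.07 and 0.785 CPM (-2.69 ± 0.45, adjusted p 0.0215), and Pin1rt1 at 1.82 and 0.273 CPM (-2.71 ± 0.46, adjusted p 0.0215). Zfp13, a zinc finger protein, was lower by 1.12 ± 0.19 (adjusted p 0.0215). Pgbd5, a transposase-derived protein, was at 39.4 CPM in Low-VCR and 123.5 CPM in High-VCR (1.65 ± 0.25, adjusted p 0.0215), and Txndc5, a disulfide isomerase, and Chdh, choline dehydrogenase, were higher by 1.25 ± 0.20 and 1.17 ± 0.19 (adjusted p 0.0215 each). All of these calls were lost without any of the 4 libraries named.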

How the data were processed

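Testis poly(A) RNA was sequenced from 20 samples in 5 groups, placed by their titles. The authors deposited raw counts for each gene symbol as whole numbers, and the submitters' processing notes name Trimmomatic 0.39, STAR 2.7.10b, featureCounts of Subread 2.0.3, DESeq2 1.36.0 and the build GRCm39. Annotation, strand setting and removal of human reads are not given in the sources used here. Libraries held 9.43 to 16.4 M (mega) counts, and a bound from 3 counts covers counting error alone.

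The main test used edgeR 4.0.16 (with limma 3.58.1, in R 4.3.3): filterByExpr by group (minimum count 10), TMM, and robust glmQLFit of 5 group means over 20 libraries (15 residual degrees of freedom). Calls required an adjusted p (Benjamini-Hochberg over 16534 genes) below 0.05. Fits of the 8 libraries alone, DESeq2 1.42.0, voom, other scalings and filters, blocks and left-out libraries were alternatives; the 8-library fits that left out each library were added after seeing the data. Scripts were tested on simulated data. Separate mice per sample are not stated in the labels, and p-values reflect only how far the samples of a group differ.

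The comparison, 35 lists (657 genes, 615 tested) and the rule for named genes were chosen with earlier results of these data known. Some genes belong to several lists, so the counts of the lists are not independent. The rule took Tssk4 and Ccdc159, the 8 largest rises and falls among called genes without overlap and with at least 1 CPM, the 4 smallest adjusted p in each direction at 10 CPM or more, the 2 called members with the smallest adjusted p per list, and 3 genes per direction from the other contrasts; gene models without a proper name, Y-linked genes and Xist stayed unnamed. Other named members were chosen after their values were seen, including Isg15, Ifit1, Gbp3, Izumo1, Prm1, Kit, Star, Cyp11a1, Ret and those that moved against their list. A few members are not reported here by name.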

Additional observations from a re-analysis of the deposited data

Results flagged for a closer look

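Among 274 groups of 4 values, 16 held a library farther from the others than Dixon's 95% limit allows, where chance gives 13.7. In ALL these were Btg4 in ALL 2 (7.59 CPM), Ebp in ALL 3 (13.9 CPM), Ica1 and Laptm5 in ALL 1 (67.8 and 4.03 CPM), and Lrch1, Timp1 and Txndc5 in ALL 3 (0.586, 3.52 and 27.8 CPM). In Low-VCR they were Ddit4 in Low-VCR 4 (58.7 CPM), Irf1, Laptm5, Rpl14 and Txndc5 in Low-VCR 2 (7.28, 10.0, 327.5 and 23.9 CPM), Plin4, a lipid droplet coat protein, in Low-VCR 3 (11.5 CPM) and Tubb5 in Low-VCR 1 (254 CPM). The list level of the testis-specific kinases stood apart in ALL 1 (8.25, log2 CPM) and that of adipocyte genes in ALL 4 (1.62).

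Of the named genes, 15 had a response to vincristine that differed between Low-VCR over ALL and VCR over NC, by the interaction term in edgeR. Some were named because they were called there, so this number is no measure of how common such genes are. Of all tested genes 5.07% were called. Leukaemia and the library-number range cannot be told apart in this contrast. The difference of log2 fold changes was 7.39 for Btbd35f15, 3.73 for Pin1rt1, 3.57 for Tmem95, 3.45 for Tssk4, 2.87 for Lyzl4, 2.83 for Mas1, 2.35 for Catsper1, 2.09 for Ica1, 1.45 for Zfp13 and 0.81 for Mki67. It was -1.32 for Chdh, -1.68 for Pgbd5, -1.92 for Laptm5, -2.38 for Itih3 and -3.33 for Serpina3n. Calls of 4 of the 15 were held whichever library was left out, those of Btbd35f15, Ica1, Mas1 and Serpina3n. With the replicate block only that of Btbd35f15 was held.

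Likewise 15 named genes differed between High-VCR and Low-VCR, some of them named because they were called there. Of all tested genes 7.81% were called. High-VCR was higher by 1.65 for Pgbd5, 1.25 for Txndc5, 1.17 for Chdh, 1.02 for Serpina3n, 0.85 for Laptm5, 0.84 for Itih3 and 0.75 for Mme on the log2 scale. The difference was -1.01 for Ica1, -1.12 for Zfp13, -1.64 for Mas1, -1.91 for Catsper1, -1.99 for Lyzl4, -2.62 for Tssk4, -2.69 for Tmem95 and -2.71 for Pin1rt1. For 0 of these 15 was the call held whichever library was left out.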

How the results depend on the processing

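Of 96 named genes called in Low-VCR against ALL, rises and falls together, 85 stayed called whichever library was left out and 69 under every other alternative as well. Most of these genes were named for a small adjusted p or a large change in this same comparison. Their counts therefore do not speak for all called genes. Over named genes and alternatives chosen at the outset 2004 values kept direction and call, 108 lost the call, 3 gained one, all for Tssk4, and 6 changed sign. Fits leaving out 1 library called 7379 to 7982 genes, 5620 to 5785 higher and 1718 to 2197 lower. The number called lower was 4525 with DESeq2 size factors, 870 with library size alone, 5098 with DESeq2, 5632 with voom, 4862 with the 8 libraries, 3905 with the 12 engrafted libraries, 4709 with the library-number range as a block, and 446 and 463 within the lower and the upper range, where 4598 and 4770 genes were called in all. The share of higher genes among those called was 50.3% with DESeq2, 53.8% with voom, 60.8% with 12 libraries and 90.3% within either range. A difference in response between the ranges was called for 0 genes in edgeR (190 at an unadjusted p under 0.05). Each range holds few libraries of each group, so that test can miss a difference and does not show that there is none. The causes of these shifts were not tested.

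Replicate numbers did not pair the samples, with correlations of same-numbered deviations from -0.033 to 0.004. With the replicate block 4736 genes were lower in Low-VCR against ALL, 1 gene was called in the interaction and 543 between High-VCR and Low-VCR.

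The interaction count was 513 with library size alone, 1868 with DESeq2 and 2620 with voom, and 7 to 2346 without 1 library. Between High-VCR and Low-VCR it was 2126 with DESeq2, 8436 with voom, 0 with these groups alone, and 0 to 3237 without 1 library. Signs turned for Ccdc159 (0.059 with library size alone and -0.42 to 0.12 without 1 library), Chdh (0.064) and Pin1rt1 (0.032) with library size alone, Pin1rt1 within the lower range (0.14) and Btbd35f15 with voom (0.041). So did list medians: leptotene and zygotene (0.0090) and heat shock (0.11) with library size alone, epididymis without a filter (-0.48) and within the lower range (-0.12), and adipocyte without a filter (-0.56).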

Other observations

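Germ cells use copies of housekeeping genes that other cells do not, so the ratio of such a copy to its broadly used relative can be read within a library. The 20 pairs were chosen after the data were seen, and values are log2 ratios of counts with a pseudocount of 0.5; copies derived from each other may share reads. In 15 pairs the ratio was lower in Low-VCR without overlap and in 5 the groups overlapped, with a median difference of -1.96. Among the latter, Cstf2t over Cstf2 differed by 0.31, and Gk2 over Gk ranged from 8.38 to 14.3 within ALL. A ratio cannot tell a fall of the germ cell copy from a rise of its relative. The glycolysis pair Pgk2 over Pgk1 stood at 5.24 ± 0.118 in ALL (SD, n = 4) and at 3.42 ± 0.312 in Low-VCR, and Gapdhs over Gapdh at 2.55 ± 0.104 and 0.76 ± 0.228. In the 20-library test Pgk1 and Gapdh were called, while Pgk2 and Gapdhs were not. The cytochrome oxidase pair Cox6b2 over Cox6b1 differed by -2.66, with both genes called. The lactate dehydrogenase pair Ldhc over Ldha did not follow: it stood at 2.29 ± 0.0398 and 2.20 ± 0.0801, and the groups overlapped, with Ldha itself lower in Low-VCR.

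The number of genes with at least 10 counts was 14904.5 ± 113.3 in ALL and 15924.5 ± 238 in Low-VCR (SD, n = 4; exact two-sided permutation p 0.0286, the smallest possible), in libraries that were also deeper in Low-VCR.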
